A study of Mus musculus with 16 samples.

Results

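Ptgr1 and 9 other genes that release, make or break down prostaglandins were followed in the lactating mammary gland of mice given a high fat diet (HFD), metformin, both or neither. Ptgr1 was chosen by its higher level with metformin on both diets, and the other 9 by their place in the same pathway. All 10 were among the 22196 genes with a place in the count tables, and 8 of them passed the filter on low counts that left 12506 genes for testing. RNA sequencing of whole inguinal glands gave 4 libraries in each of 4 groups: HFD with metformin, NCD with metformin, HFD control and NCD control. NCD is the other diet of the study, and the labels do not spell it out. All groups carry the age label postnatal day 16, which may mean the age of the mice or the time since birth of the litter. The labels give neither strain nor genotype, nor the dose and route of metformin, a drug that lowers blood glucose. They do not say whether each library is a separate animal, so every p-value measures only the spread between libraries, which may be technical.

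Prostaglandins are short-lived lipid signals made from arachidonic acid, a fatty acid that phospholipases cut from membranes. Cyclooxygenases turn it into an unstable precursor, synthases turn that into prostaglandin E, D or F, and a dehydrogenase followed by a reductase inactivates the products. Ptgr1 encodes such a reductase, an NADPH-dependent enzyme that saturates a double bond of 15-oxo-prostaglandins. It also oxidises leukotriene B4 and reduces reactive aldehydes that arise from oxidised lipids, and its gene is a known target of the antioxidant factor NRF2. Prostaglandins are made in mammary tissue and are found in milk.

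The promoters of both reductase genes are shown because Ptgr1 and Ptgr2 encode related enzymes but differed in their values below. Each line gives the 250 bases before the RefSeq transcription start and the start base itself, 5′ to 3′ on the gene's strand (build GRCm38.p6), with the start base and any TATAA motif in capitals. Ptgr1 lies on the minus strand at chr4:58987078-58987328 and Ptgr2 on the plus strand at chr12:84285046-84285296.
Ptgr1: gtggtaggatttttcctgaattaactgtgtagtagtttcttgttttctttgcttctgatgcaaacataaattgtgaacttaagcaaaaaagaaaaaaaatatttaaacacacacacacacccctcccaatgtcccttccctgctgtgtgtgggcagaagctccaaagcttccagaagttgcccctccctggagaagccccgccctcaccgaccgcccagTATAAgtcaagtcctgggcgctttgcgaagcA
Ptgr2: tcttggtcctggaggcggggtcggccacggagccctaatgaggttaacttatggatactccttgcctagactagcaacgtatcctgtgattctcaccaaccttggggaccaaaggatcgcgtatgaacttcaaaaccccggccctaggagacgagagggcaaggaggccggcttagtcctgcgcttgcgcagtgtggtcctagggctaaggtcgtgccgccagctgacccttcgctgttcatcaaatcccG
The Ptgr1 window held TATAA, the core of a TATA box, from 31 to 27 bases before the start, and the Ptgr2 window held none. TATAA on either strand was in 24.9% of 32851 promoters of the same length, which run from 250 bases before to 50 after the start, and in those of 3 of the 10 genes. The core of the antioxidant response element, TGACNNNGC, was searched on both strands in the same windows. It was in 12.4% of all promoters and in that of 1 of the 10 genes, Ptges3, and in neither reductase window. A match describes letters only, and a window without one says nothing of more distant sites.

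Library totals ran from 8649316 to 39156617 counts, and the shallowest library was HFD control 4. Milk protein genes, the defining transcripts of a secreting gland, took 70.1 to 76.8% of the counts. Mitochondrial transcripts took 2.57 to 3.01% in HFD metformin, 3.24 to 3.67% in NCD metformin, 1.97 to 2.37% in HFD control and 2.18 to 2.71% in NCD control. Library NCD control 3 stood apart, with a sum of 10 skeletal muscle markers of 3425 CPM (counts scaled to library size) against at most 126.1 in any other library. Its sum of 7 adipocyte markers was also the highest, 933.6 CPM. Adipocyte sums were 113.2 to 521.2 CPM in HFD metformin, 262.6 to 757.7 in NCD metformin, 109.1 to 305 in HFD control and 81.51 to 139.8 in the other NCD control libraries. Sums of 8 macrophage markers were 98.83 to 136.8 CPM in HFD metformin, 71.25 to 97.89 in NCD metformin, 98.43 to 121.2 in HFD control and 98.81 to 149 in NCD control. All 7 adipocyte and all 8 macrophage markers were detected in each group. Of the 10 skeletal muscle markers, 9 were called lower with metformin on NCD and 1 averaged over diets (edgeR). These calls are part of the 6.03% and 5.57% of all genes called lower in those contrasts. Of 53 tested markers of 9 cell types other than muscle, 1 was higher with metformin on NCD (Kdr of endothelium, log2 0.75 ± 0.20, adjusted p = 0.0334) and 2 were lower (Pdgfra of fibroblasts, -1.09 ± 0.32, adjusted p = 0.0394, and Cd14 of macrophages, edgeR). Averaged over diets 3 were lower with metformin, namely Pdgfra (-0.81 ± 0.23), Col3a1 of fibroblasts (-0.46 ± 0.11) and Mcpt4 of mast cells (-0.98 ± 0.28). With metformin, Kdr (-0.82 ± 0.21) and Mcpt4 (-2.07 ± 0.42) were lower on HFD than on NCD and Cd14 (1.27 ± 0.30) was higher. Of all genes, 4.01% were higher and 6.03% lower with metformin on NCD, and 5.57% were lower averaged over diets. The metformin counts of markers lay near or below these shares. For HFD over NCD with metformin, 1.86% of all genes were higher and 0.504% lower. The endothelium markers did not all move with Kdr. With metformin on NCD 1 of the 6 lay below 0, Cldn5 (-0.76 ± 0.31). For HFD over NCD with metformin 5 of the 6 lay below 0, and Cldn5 was 0.85 ± 0.31. Cldn5 did not pass in either contrast. Averaged over diets, all 5 fibroblast and all 5 mast cell markers tested lay below 0 with metformin. On NCD 4 fibroblast and 2 mast cell markers did. For HFD over NCD with metformin all 5 mast cell markers lay below 0. Sums of 7 mast cell markers were low, at 0.69 to 3.31 CPM in HFD metformin, 3.34 to 7.09 in NCD metformin, 3.26 to 6.85 in HFD control and 3.52 to 5.40 in NCD control. The part of these cell types in the results was not tested. Fibroblast sums were 205.4 to 245.4 CPM in HFD metformin, 181.2 to 271 in NCD metformin, 215.6 to 401.7 in HFD control and 267.5 to 278.2 in NCD control. In whole tissue, fewer cells of a type and less RNA per cell cannot be told apart.

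Ptgr1 stood higher with metformin on both diets. Its level was 17.84, 23.67, 15.66 and 13.08 CPM in the 4 HFD metformin libraries, 22.53, 24.81, 16.23 and 21.16 CPM in NCD metformin, 6.97, 7.90, 7.18 and 5.47 CPM in HFD control and 9.73, 7.97, 7.52 and 9.55 CPM in NCD control. The lowest metformin library, HFD metformin 4, lay above the highest control library, NCD control 1, so the treatments did not overlap on either diet or across diets. Group means were 17.56 ± 4.51 CPM in HFD metformin, 21.18 ± 3.63 CPM in NCD metformin, 6.88 ± 1.02 CPM in HFD control and 8.69 ± 1.11 CPM in NCD control (SD, n = 4). Metformin over control was a factor of 2.52 on HFD, 2.44 on NCD and 2.48 averaged over the diets. On the log2 scale these are 1.34 ± 0.18, 1.28 ± 0.17 and 1.31 ± 0.12 (SE). No test is given, since these values selected the gene.

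The metformin effect on Ptgr1 on HFD minus that on NCD was 0.05 ± 0.24 on the log2 scale (SE, 95% interval -0.47 to 0.57). Since a difference on both diets selected the gene, this value is a description and supports nothing on the role of diet. Over the alternatives of scaling, filtering, fit and left-out library, the log2 fold change stayed between 1.15 and 1.46 on HFD and between 1.20 and 1.39 on NCD. The numbers in the library titles have several gaps. The libraries were split at the gap between 10 and 14, and the labels do not say whether it marks a batch. Below the gap the difference in mean log2 CPM was 1.35 on HFD (1 metformin against 1 control library) and 1.49 on NCD (2 against 3). Above it the difference was 1.31 on HFD (3 against 3) and 0.95 on NCD (2 against 1). With so few libraries these values are a description only. The mitochondrial share moved with metformin too, as given above, and its part in the result was not tested. Adipocyte sums, also given above, were higher in NCD metformin than in NCD control libraries 1, 2 and 4, and their part was not tested. Ptgr1 was 7.52 CPM in NCD control 3, the library with the highest adipocyte sum.

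The difference of Ptgr1 with diet was small and did not pass the test. HFD over NCD was -0.27 ± 0.17 with metformin and -0.32 ± 0.18 without it on the log2 scale, with adjusted p = 0.413 and 0.808 (edgeR quasi-likelihood test, adjusted by Benjamini and Hochberg over all 12506 genes). Averaged over treatments it was -0.30 ± 0.12 (SE, 95% interval -0.55 to -0.04, adjusted p = 0.223). Within treatments, 3 of 4 HFD metformin libraries lay below the NCD metformin mean, and 4 of 4 HFD control libraries below the NCD control mean. Against the mean of all NCD libraries, which pools metformin and control, 5 of 8 HFD libraries were lower. With scaling by library size only, in which the median of all genes moved to -0.17, the averaged contrast passed at -0.47 (adjusted p = 0.0282). The gene (ENSMUSG00000028378.6, chromosome 4 from 58965439 to 58987119 on the minus strand, GENCODE M21 on GRCm38) is listed with 1 transcript whose coding length is 990 bases, so no shift between its own transcripts can enter the sum.

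**Figure D1:**
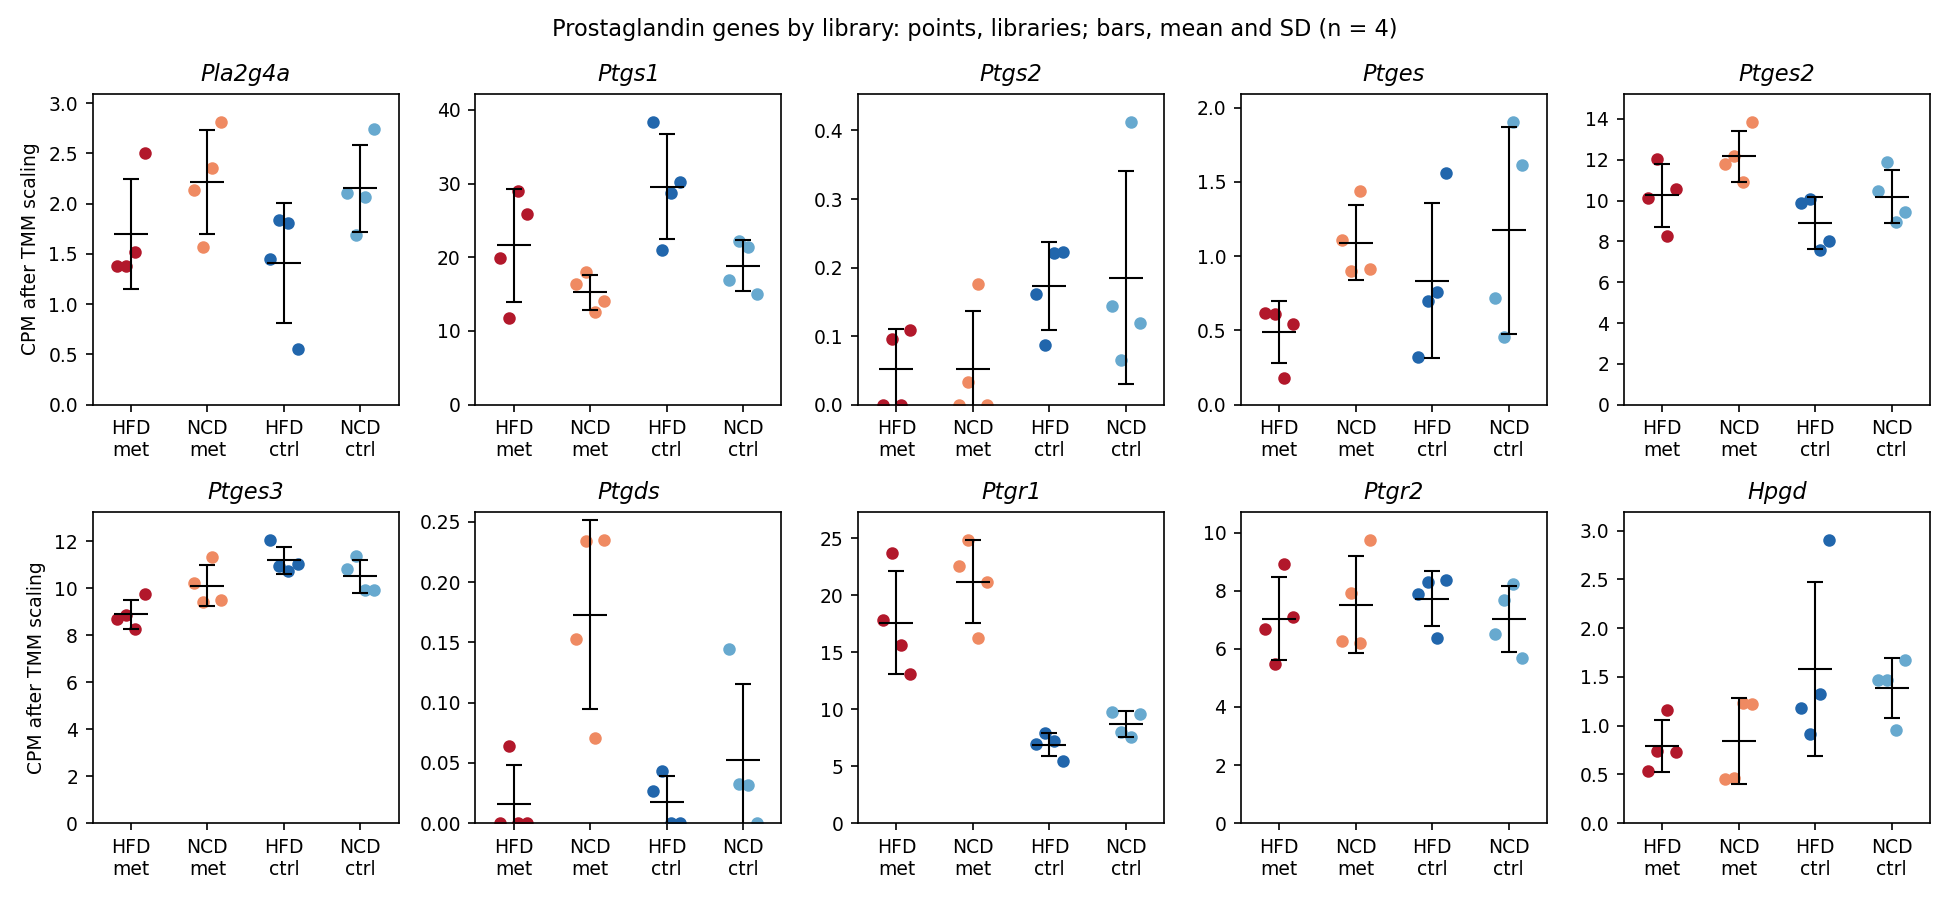
CPM after TMM scaling of the 10 genes in each library, with HFD metformin, NCD metformin, HFD control and NCD control from left to right and the mean and SD (n = 4) as bars. Each panel starts at 0, where error bars end too, and has its own scale. Only in the Ptgr1 panel do all metformin libraries (13.08 to 24.81 CPM) lie above all control libraries (5.47 to 9.73 CPM).

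Levels compared between genes are given per length, in TPM, the abundance of transcripts scaled for their length and for library size. Ptges3 was the highest of the 10 in every group, at 14.1 ± 2.2 TPM in HFD metformin, 18.3 ± 2.2 TPM in NCD metformin, 19.1 ± 2.1 TPM in HFD control and 20.5 ± 0.9 TPM in NCD control (SD, n = 4). Ptgr1 came next in both metformin groups, at 7.17 ± 2.05 TPM on HFD and 9.88 ± 1.54 TPM on NCD, and there it overlapped neither the gene above nor the gene below. In the control groups it lay among the middle genes, at 3.07 ± 0.23 TPM on HFD and 4.47 ± 0.72 TPM on NCD. Its rank was 2 of 10 in both metformin groups, 5 in HFD control and 3 in NCD control, and in the control groups it overlapped its neighbours Ptges2, Ptges, Ptgr2 or Ptgs1. The control ranks depend in part on Ptgr2-202, a short transcript of Ptgr2 with a mean of 1.09 counts in a library. It made up 1.31 TPM of Ptgr2 in HFD control and 2.42 TPM in NCD control. The main transcript of Ptgr2 alone had 3.13 TPM in HFD control, close to Ptgr1, and 3.21 TPM in NCD control, below Ptgr1. Ptgs2 and Ptgds were the lowest in all groups, at or below 0.196 TPM on average. The first place of Ptges3 depends on the scaling for length. Its main transcript was listed at 483 bases, against 990 for Ptgr1 and 1809 for Ptgs1. In CPM the mean of Ptges3 lay below that of Ptgs1 in every group.

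**Figure D2:**
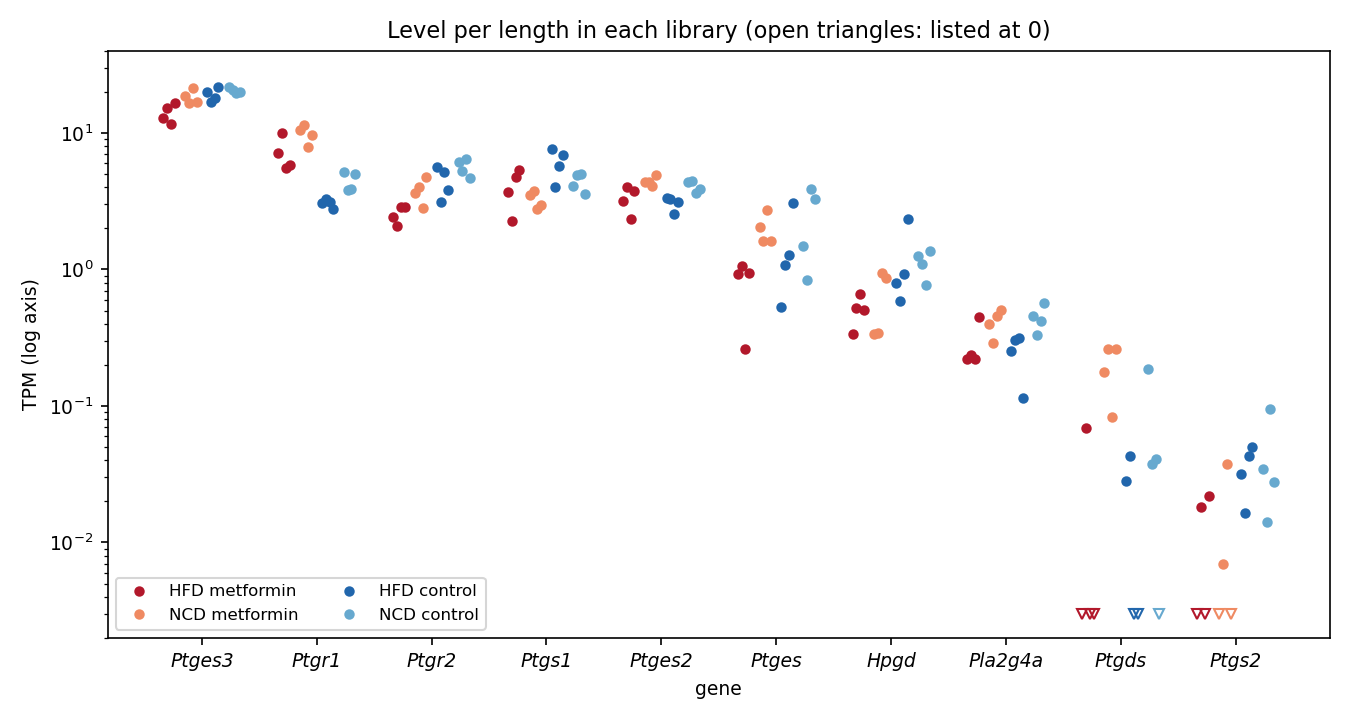
TPM on a log axis for each library, with genes ordered along the x axis and colours for the 4 groups. Ptges3 lies between 11.67 and 21.74 TPM, Ptgr1 between 5.58 and 11.41 TPM with metformin and between 2.76 and 5.18 TPM in controls, and open triangles mark libraries in which Ptgds or Ptgs2 was listed at 0.

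Pla2g4a encodes the cytosolic phospholipase that frees arachidonic acid, the step that feeds the pathway. It had 1.38, 1.38, 1.52 and 2.51 CPM in HFD metformin, 2.14, 1.57, 2.35 and 2.82 CPM in NCD metformin, 1.45, 1.83, 1.80 and 0.56 CPM in HFD control and 2.11, 1.69, 2.06 and 2.75 CPM in NCD control. The groups overlapped in every comparison. Metformin over control was 0.21 ± 0.30 on HFD and 0.05 ± 0.28 on NCD (log2, SE), and HFD over NCD averaged over treatments was -0.46 ± 0.20 (adjusted p = 0.256, edgeR).

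Ptgs1, the cyclooxygenase that most tissues make at a steady level, was the most abundant cyclooxygenase and showed its largest difference with diet. It had 19.84, 11.71, 28.99 and 25.88 CPM in HFD metformin, 16.39, 17.95, 12.61 and 14.12 CPM in NCD metformin, 38.38, 20.96, 28.78 and 30.25 CPM in HFD control and 16.97, 22.18, 21.33 and 15.01 CPM in NCD control. HFD means lay above NCD means with and without metformin, and single libraries overlapped in both. The difference was 0.50 ± 0.24 with metformin (adjusted p = 0.261), 0.65 ± 0.24 without it (adjusted p = 0.579) and 0.58 ± 0.17 averaged (log2, SE, adjusted p = 0.0991, edgeR), with 7 of 8 HFD libraries above the NCD mean. The averaged contrast passed in DESeq2 (adjusted p = 0.0277) and in edgeR without HFD metformin 2, the library with the lowest Ptgs1 on HFD. Metformin over control was -0.46 ± 0.24 on HFD and -0.31 ± 0.24 on NCD, with adjusted p = 0.441 and 0.424 (edgeR).

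Ptgs2, the inducible cyclooxygenase, was barely detected in any group, and it was not tested. Its counts were 0, 3, 0 and 3 in HFD metformin, 0, 1, 5 and 0 in NCD metformin, 6, 2, 7 and 2 in HFD control and 5, 2, 13 and 4 in NCD control. These sum to 6 counts with metformin on HFD, 6 with metformin on NCD, 17 for HFD control and 24 for NCD control. For scale, 3 counts in a single library equal 0.0704 to 0.335 CPM. The ratio of metformin to control was 0.378 on HFD (95% exact counting interval 0.122 to 1.01) and 0.256 on NCD (0.0857 to 0.643). Without NCD control 3, which held 13 of the 24 counts and the muscle and adipocyte signal, the NCD ratio was 0.424 (0.129 to 1.25). These intervals cover counting error only and not the spread between libraries.

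Of the prostaglandin E synthases, Ptges, the inducible microsomal enzyme, was low and variable. It had 0.62, 0.61, 0.18 and 0.55 CPM in HFD metformin, 1.11, 0.90, 1.44 and 0.91 CPM in NCD metformin, 0.32, 0.70, 0.76 and 1.56 CPM in HFD control and 0.72, 0.46, 1.91 and 1.61 CPM in NCD control. With metformin all HFD libraries lay below all NCD libraries, and without it the diets overlapped. HFD over NCD was -1.16 ± 0.50 with metformin (adjusted p = 0.21) and -0.63 ± 0.48 without it (adjusted p = 0.887, log2, SE, edgeR). With 4 to 60 counts in a library, the precision is low.

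Ptges2, a membrane-associated prostaglandin E synthase, was steady by comparison, at 10.26 ± 1.55 CPM in HFD metformin, 12.18 ± 1.25 CPM in NCD metformin, 8.89 ± 1.28 CPM in HFD control and 10.18 ± 1.29 CPM in NCD control (SD, n = 4). Metformin over control was 0.20 ± 0.14 on HFD, 0.26 ± 0.13 on NCD and 0.23 ± 0.10 averaged (log2, SE, averaged adjusted p = 0.121, edgeR). Ptges3, the cytosolic synthase that is also the HSP90 co-chaperone p23, had 8.69, 8.88, 8.28 and 9.74 CPM in HFD metformin, 10.22, 9.39, 11.31 and 9.50 CPM in NCD metformin, 12.04, 10.96, 10.72 and 11.05 CPM in HFD control and 10.80, 11.38, 9.94 and 9.94 CPM in NCD control. On HFD the metformin libraries all lay below the control libraries, and on NCD they overlapped. The difference was -0.33 ± 0.09 on HFD (log2, SE, unadjusted p = 0.00264, adjusted p = 0.163), -0.06 ± 0.09 on NCD (adjusted p = 0.726) and -0.19 ± 0.07 averaged (adjusted p = 0.062), all by edgeR. The difference between the diets in this effect was -0.27 ± 0.13 and did not pass (adjusted p = 0.499, edgeR). The averaged effect passed with scaling by library size only, with a minimum of 1 CPM in 4 libraries, without NCD metformin 3 and without HFD metformin 4, at a lowest adjusted p of 0.0457 (edgeR). Ptges3 was counted with 2 listed transcripts, and reads from related copies elsewhere in the genome could be split with it.

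Ptgds, the lipocalin-type prostaglandin D synthase, was also near its detection limit and was not tested. Its counts were 0, 2, 0 and 0 in HFD metformin, 4, 7, 2 and 10 in NCD metformin, 1, 1, 0 and 0 in HFD control and 5, 1, 1 and 0 in NCD control. NCD metformin held 23 counts in all, against 2 in HFD metformin, 2 in HFD control and 7 in NCD control. The ratio of metformin to control was 3.37 on NCD (95% exact counting interval 1.4 to 9.29) and 1.07 on HFD (0.0777 to 14.8). With metformin the ratio of HFD to NCD was 0.118 (0.0135 to 0.477).

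Hpgd, the 15-hydroxyprostaglandin dehydrogenase that starts inactivation just before the step of Ptgr1, had lower means with metformin, opposite to Ptgr1, without passing the test. It had 0.54, 0.74, 1.16 and 0.73 CPM in HFD metformin, 0.46, 0.47, 1.23 and 1.22 CPM in NCD metformin, 1.18, 0.92, 1.33 and 2.90 CPM in HFD control and 1.47, 1.46, 0.95 and 1.67 CPM in NCD control. Metformin and control libraries overlapped on both diets. The difference was -0.89 ± 0.41 on HFD (adjusted p = 0.377), -0.70 ± 0.39 on NCD (adjusted p = 0.249) and -0.80 ± 0.28 averaged (log2, SE, adjusted p = 0.0723, edgeR), and all 8 metformin libraries lay below the control mean. The averaged contrast passed in DESeq2 (adjusted p = 0.0387) and in edgeR with a term for the gap in title numbers (adjusted p = 0.0225). Hpgd rests on 7 to 56 counts in a library. Sums of macrophage markers were lower with metformin on NCD. Most of that difference lay in Cd14, the only marker of the 8 that passed the test. It averaged 17.8 ± 2.7 CPM in NCD metformin and 48.7 ± 19.7 CPM in NCD control (SD, n = 4, log2 -1.45 ± 0.30, adjusted p = 0.0134, edgeR). The others did not pass, from -0.47 for Cd68 to 0.31 for Itgam on the log2 scale, 7 of the 8 markers lay below 0, and their part in the values of Hpgd was not tested.

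Ptgr2, which encodes another 15-oxo-prostaglandin reductase, had group means between 7.03 and 7.73 CPM. It had 6.69, 5.47, 8.90 and 7.09 CPM in HFD metformin, 6.25, 7.92, 6.18 and 9.74 CPM in NCD metformin, 7.89, 8.30, 6.36 and 8.37 CPM in HFD control and 6.52, 7.68, 8.22 and 5.70 CPM in NCD control, with overlap in every comparison. Metformin over control was -0.13 ± 0.18 on HFD, 0.10 ± 0.17 on NCD and -0.01 ± 0.12 averaged (log2, SE, 95% interval of the averaged value -0.28 to 0.25, adjusted p = 0.961, edgeR). In TPM the sum over transcripts also held Ptgr2-202, a listed transcript of 171 bases with a mean of 1.09 counts in a library, at 0 TPM in HFD metformin, 0.62 TPM in NCD metformin, 1.31 TPM in HFD control and 2.42 TPM in NCD control on average. The main transcript, Ptgr2-201, had 2.55 TPM in HFD metformin, 2.95 TPM in NCD metformin, 3.13 TPM in HFD control and 3.21 TPM in NCD control. With counts rebuilt from TPM, the averaged metformin effect of Ptgr2 was -0.56 (adjusted p = 0.0411, edgeR), and those counts include the short transcript.

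**Figure D3:**
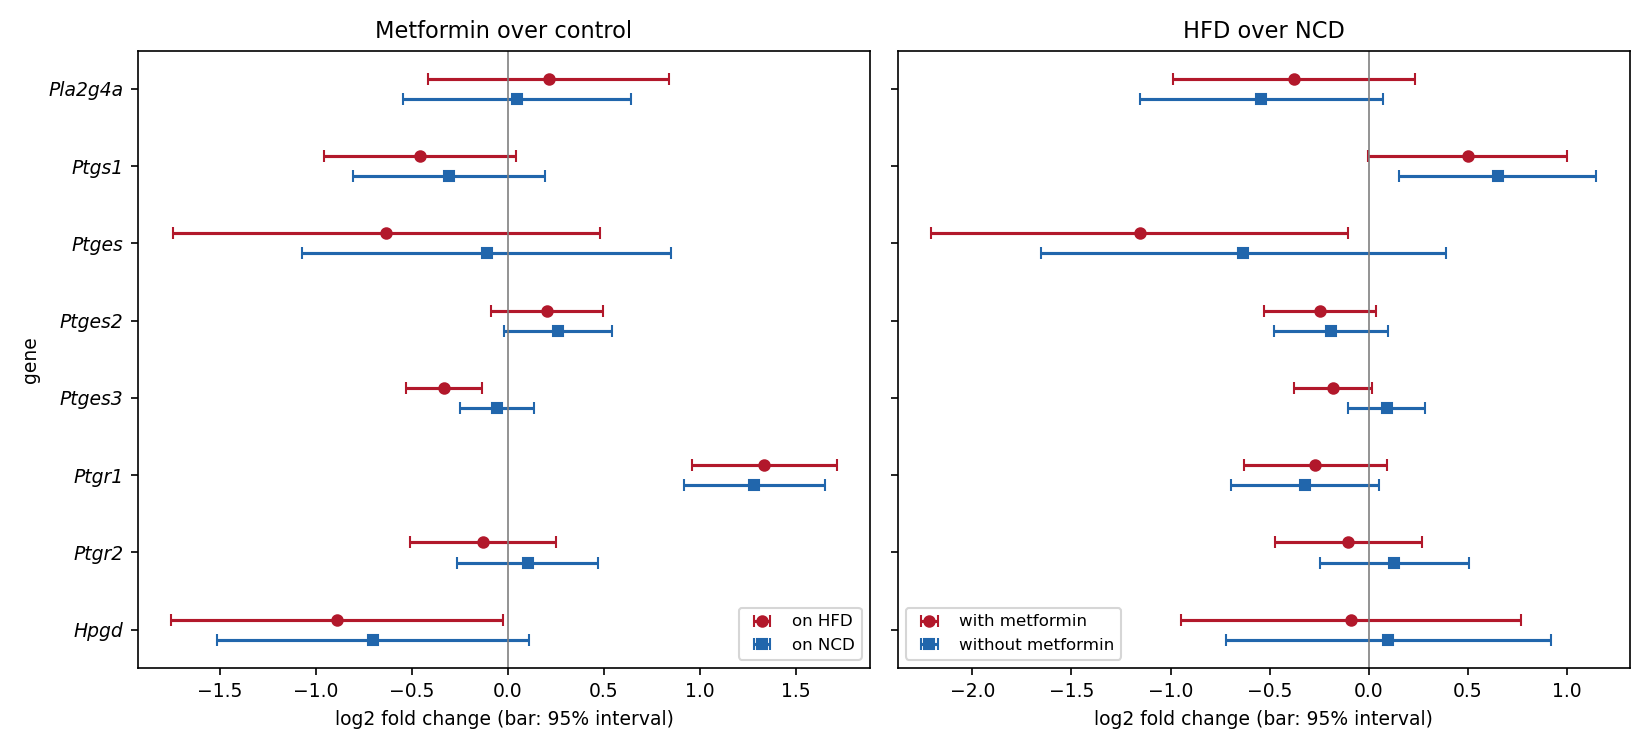
Log2 fold changes with 95% intervals of the 8 tested genes, metformin over control at left (circles on HFD, squares on NCD) and HFD over NCD at right (circles with metformin, squares without). Ptgr1 stands at 1.34 and 1.28 at left, apart from the other 7, and Ptgs1 has the highest values at right, 0.50 and 0.65.

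Counted together, the other 7 tested genes gave no call for metformin in edgeR at an adjusted p under 0.05. On NCD 0 of 7 passed, against 10% of all 12506 genes, with 0 at an unadjusted p under 0.05 and 0 in DESeq2. On HFD 0 of 7 passed, against 0.168% of all genes, with 2 (Ptges3 and Hpgd) at an unadjusted p under 0.05 and 0 in DESeq2. Averaged over diets 0 of 7 passed, against 11.4% of all genes, with 4 (Ptgs1, Ptges2, Ptges3 and Hpgd) at an unadjusted p under 0.05 and 1, Hpgd, in DESeq2. The groups did not overlap for 1 of 7 on HFD, Ptges3, against 6.65% of all genes, and for 0 of 7 on NCD, against 18.6%.

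For diet, Ptgr1 is counted with the others. With metformin 0 of 8 passed, against 2.36% of all genes, with 1, Ptges, at an unadjusted p under 0.05 and 0 in DESeq2. Without metformin 0 of 8 passed, against 0.064% of all genes, with 1, Ptgs1, at an unadjusted p under 0.05 and 0 in DESeq2. Averaged over treatments 0 of 8 passed, against 0.936% of all genes, with 5 (Ptgr1, Ptgs1, Ptges, Ptges2 and Pla2g4a) at an unadjusted p under 0.05 and 1, Ptgs1, in DESeq2. Diets did not overlap for 1 of 8 with metformin, Ptges, against 10.2% of all genes, and for 0 of 8 without it, against 4.12%. The test of whether the metformin effect differs with diet passed for 0 of 7 and for 0% of all genes, with 0 of the 7 at an unadjusted p under 0.05 and 0 in DESeq2. Over all genes that test gave 1243 at an unadjusted p under 0.05 in edgeR and 22 calls in DESeq2.

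The wider eicosanoid pathway, from a list of 72 other genes of arachidonate release, prostanoid synthesis, transport and receptors, lipoxygenases and epoxide metabolism, had 45 tested genes. With metformin on NCD 1 rose and 1 fell, beside 4.01% of all genes higher and 6.03% lower (edgeR). Averaged over diets 1 rose and 2 fell, beside 5.82% higher and 5.57% lower. On HFD 0 passed in edgeR and in DESeq2, with 7 at an unadjusted p under 0.05. The list's median log2 fold change for metformin was 0.05 on HFD and 0.04 on NCD, beside 0.00 over all genes in each. The gene that rose was Faah, whose product breaks down anandamide and so frees arachidonic acid. It averaged 11.06 ± 0.65 CPM in HFD metformin, 12.6 ± 3.26 CPM in NCD metformin, 9.86 ± 0.68 CPM in HFD control and 6.46 ± 0.79 CPM in NCD control (SD, n = 4). The log2 difference was 0.96 ± 0.15 on NCD (adjusted p = 0.00474) and 0.17 ± 0.15 on HFD (adjusted p = 0.679, edgeR), and the test of that difference between diets did not pass (-0.79 ± 0.21, adjusted p = 0.334).

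Ephx1, an epoxide hydrolase of the same list, fell with metformin on NCD. It averaged 21.66 ± 5.52 CPM in HFD metformin, 11.49 ± 3.08 CPM in NCD metformin, 28.64 ± 1.30 CPM in HFD control and 26.71 ± 7.27 CPM in NCD control (SD, n = 4). The log2 difference was -1.22 ± 0.22 on NCD (adjusted p = 0.00766), -0.41 ± 0.21 on HFD (adjusted p = 0.449) and -0.81 ± 0.15 averaged (adjusted p = 0.00518, edgeR). Dagla, which makes the arachidonate-bearing lipid 2-arachidonoylglycerol, fell by 0.50 ± 0.11 averaged over diets (log2, SE, adjusted p = 0.0118, edgeR). The calls of Faah and Ephx1 for metformin held in each alternative run, and that of Dagla was lost with counts rebuilt from TPM (adjusted p = 0.175).

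With diet, 1 of the 45 genes rose with metformin present, beside 1.86% of all genes, and 1 fell averaged over treatments, beside 0.416% (edgeR). Without metformin 0 passed in edgeR, with 10 at an unadjusted p under 0.05 and 1 higher and 2 lower in DESeq2. Akr1b8, an aldo-keto reductase, averaged 1.23 ± 0.76 CPM in HFD metformin, 2.65 ± 1.05 CPM in NCD metformin, 1.25 ± 0.22 CPM in HFD control and 4.07 ± 0.78 CPM in NCD control (SD, n = 4). HFD over NCD averaged over treatments was -1.39 ± 0.26 on the log2 scale (adjusted p = 0.0206, edgeR), with all 8 HFD libraries below the NCD mean. The call was lost without HFD control 3 or without NCD metformin 3, with adjusted p of 0.0531 and 0.0575 (edgeR). The gene that rose on HFD with metformin was Ephx1, by 0.91 ± 0.22 (adjusted p = 0.041, edgeR). That call was lost in 13 of 26 alternatives, 10 of which left out 1 library (HFD metformin 1, 2 or 4, any of the 4 NCD metformin libraries, HFD control 2 or 3, or NCD control 2).

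Prostaglandin receptors were low. Of 10 listed receptor genes 4 were tested, and 0 passed in any of the 7 contrasts in edgeR or in DESeq2, with at most 1 at an unadjusted p under 0.05 in a contrast. The highest were Ptger2, a receptor of prostaglandin E, at 2.80 TPM, and Ptgfrn, a regulator of the prostaglandin F receptor, at 1.27 TPM over all 16 libraries. Ptger4 and Ptger3, further receptors of prostaglandin E, averaged 0.98 and 0.19 TPM. Slco2a1, the prostaglandin uptake carrier, averaged 1.54 TPM and Abcc4, an exporter of prostaglandins, 0.09 TPM. The phospholipase genes with the highest level were Pla2g16 at 37.3 TPM and Pla2g12a at 19.7 TPM. Akr1b3 at 10.8 TPM and Cbr1 at 9.64 TPM, a pair of reductases that can act on prostaglandins, led the synthesis list beside Ptges3. Of the leukotriene genes, Ggt1 at 36.4 TPM was the highest, Lta4h, the leukotriene A4 hydrolase, had 3.46 TPM and Alox5ap, the 5-lipoxygenase partner, 2.07 TPM.

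Since Ptgr1 is a known NRF2 target, 27 other listed NRF2 targets, of which 26 were tested, were set beside it. Ephx1 and Akr1b8 are among the genes that are on both this list and the eicosanoid list. Averaged over diets, 3 of 26 rose with metformin (Gsta4, Taldo1 and Esd) and 3 fell (Ephx1, Hmox1 and Gsr), beside 5.82% of all genes higher and 5.57% lower, with a median log2 fold change of -0.06. On NCD 1 rose (Gsta4, by 0.74 ± 0.22) and 3 fell (Ephx1, Aox1 and Gclm), beside 4.01% of all genes higher and 6.03% lower. On HFD 0 passed in edgeR and in DESeq2, with 6 at an unadjusted p under 0.05. Gsta4 encodes a glutathione transferase that, like Ptgr1, acts on aldehydes from oxidised lipids, and Hmox1 encodes heme oxygenase. Hmox1 fell by 0.68 ± 0.18 averaged over diets (log2, SE, adjusted p = 0.0244, edgeR), the opposite direction to Ptgr1. Most of these metformin calls depended on single libraries. Averaged over diets the genes called higher numbered 0 without NCD control 1, HFD control 3 or HFD metformin 3, and 1 without NCD control 2, NCD metformin 2, HFD metformin 2, NCD metformin 4 or HFD control 4. The genes called lower were 1 without NCD control 1 and 2 or 3 without any other single library. The NCD calls were lost in 14 of 26 alternatives for Gsta4, 16 for Aox1 and 9 for Gclm, and in 0 for Ephx1. The averaged call was lost in 19 of 25 alternatives for Esd, 11 for Gsr, 9 for Taldo1 and 3 for Gsta4, and that of Hmox1 was lost without NCD control 1 (adjusted p = 0.0507, edgeR).

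With diet, calls in the NRF2 list were mostly lower. Averaged over treatments 8 of 26 genes were lower on HFD and 0 higher, against 0.416% of all genes called lower and 0.52% higher, with a median log2 fold change of -0.31 beside 0.00 over all genes. They were Gsta4 (-1.04 ± 0.17), Akr1b8, Aox1, Mgst1, Pgd, Tkt, Me1 and Gclm. Pgd, Tkt and Me1 encode NADPH-generating or sugar-recycling enzymes that also serve fat synthesis in the lactating gland. The count lay between 3 and 9 when 1 library was left out. It was 3 without HFD control 3 or NCD metformin 3, 4 without HFD metformin 2 and 5 without NCD control 2 or NCD metformin 1. It was 12 in DESeq2, with 2 higher there, 20 with scaling by library size only, 4 with counts rebuilt from TPM and 5 with a term for the gap in title numbers. With metformin 4 were lower on HFD (Gsta4, Me1, Pgd and Txnrd1), beside 0.504% of all genes, and 1 higher, Ephx1, beside 1.86%. Without metformin 0 passed in edgeR, with 12 at an unadjusted p under 0.05 and 6 lower in DESeq2. Ptgr1, at -0.30 averaged over treatments, did not pass.

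The genes whose pattern most resembled Ptgr1 were ranked by Pearson correlation of log2 CPM over the 16 libraries, among 10267 genes. Genes whose symbols start with Gm and a number, or hold Rik, were left out of the ranking. The libraries share the treatment groups, so such correlations are a description. Galk2, an N-acetylgalactosamine kinase, came first with r = 0.97 and a Spearman rho of 0.95, and kept r = 0.78 after group means were removed. It averaged 40.8 ± 5.7 CPM in HFD metformin, 46.7 ± 3.2 CPM in NCD metformin, 24.6 ± 3.0 CPM in HFD control and 29.6 ± 2.8 CPM in NCD control (SD, n = 4). Next were Prss53 (r = 0.96), Pycard (0.93), an inflammasome adaptor, and Idh2 (0.92), the mitochondrial NADPH-forming isocitrate dehydrogenase. Samm50 (0.92) of the mitochondrial outer membrane, Prelid1 (0.92) of the space between the membranes, Eif3h (0.92) and Dgcr6 (0.91) followed.

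Some genes ran opposite to Ptgr1. The lowest r were those of Cd164 (-0.92), Ccng1 (-0.89), a p53 target, Sntb2 (-0.88) and Prkacb (-0.87), a catalytic subunit of protein kinase A. Of the prostaglandin genes, Hpgd had r = -0.71 with Ptgr1, Ptges3 -0.66, Ptgs1 -0.64, Ptges2 0.67, Pla2g4a 0.30, Ptgr2 -0.18 and Ptges -0.10. Within groups, Stxbp2 (r = 0.84), Polr3e (0.83) and Galk2 (0.78) followed Ptgr1 most closely, from deviations of 4 libraries around each group mean.

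**Figure D4:**
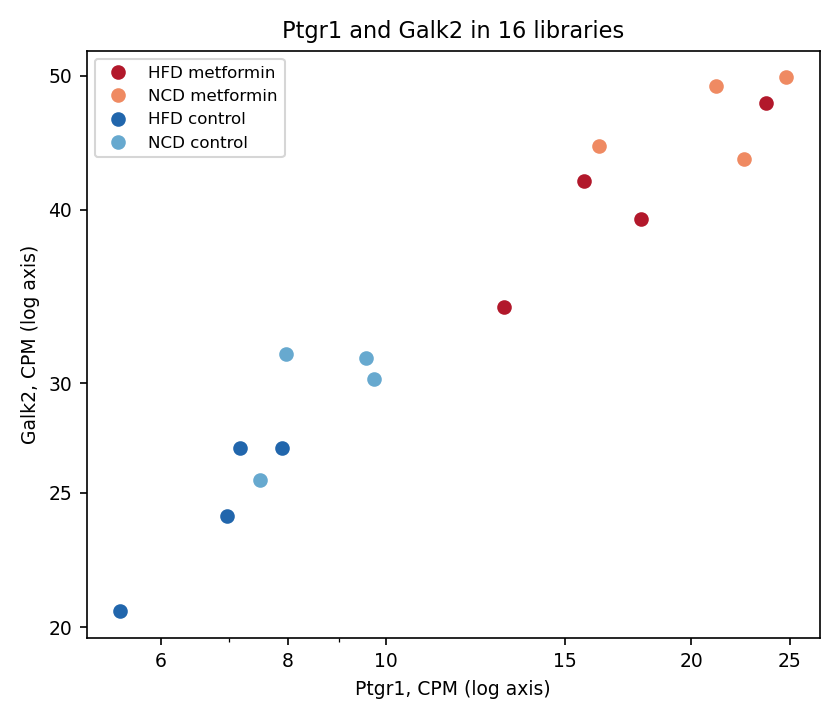
Galk2 against Ptgr1 in CPM, both on log axes, with a point for each of 16 libraries coloured by group. Metformin libraries lie at the upper right, with Ptgr1 at 13.08 CPM or more and Galk2 at 34.06 CPM or more, and control libraries at the lower left, with Galk2 at 31.48 CPM or less.

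The genes around Ptgr1 on chromosome 4 were set beside it. Of 21 annotated genes within 500 kb, 11 were in the count tables and 7 were tested, and 0 of the 7 passed as higher with metformin on either diet or averaged, in edgeR or in DESeq2. Of all genes 0.128% were higher on HFD, 4.01% on NCD and 5.82% averaged, so a count of 0 in 7 shows nothing about these neighbours. On HFD 0 passed in either direction, with 1 at an unadjusted p under 0.05. The nearest tested neighbour, Dnajc25, a heat shock protein co-factor 7.94 kb away, averaged 4.20 ± 0.78 CPM in HFD metformin, 5.01 ± 0.43 CPM in NCD metformin, 3.68 ± 0.58 CPM in HFD control and 3.84 ± 0.36 CPM in NCD control (SD, n = 4). Its metformin difference was 0.19 ± 0.16 on HFD and 0.38 ± 0.15 on NCD, with adjusted p = 0.659 and 0.11 (log2, SE, edgeR). Ugcg, which makes glucosylceramide and lies 202 kb away, fell by 0.98 ± 0.27 on NCD (adjusted p = 0.0332). Ptbp3, an RNA-binding protein gene 485 kb away, fell by 0.78 ± 0.20 (adjusted p = 0.0263, edgeR). These are 2 of 7, beside 6.03% of all genes lower on NCD. Averaged over diets Ugcg fell by 0.80 ± 0.19 (adjusted p = 0.0168) and Ptbp3 by 0.58 ± 0.14 (adjusted p = 0.0189, edgeR).

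The NCD calls of these neighbours depended on single libraries. That of Ugcg was lost without any 1 of the 4 NCD control libraries or NCD metformin 1, 2 or 3, with adjusted p up to 0.0889, and that of Ptbp3 without NCD control 1 or 3 or NCD metformin 2 or 3, with adjusted p up to 0.0927 (edgeR, lost calls with counts rebuilt from TPM included). Averaged over diets the call of Ugcg held in each alternative, and that of Ptbp3 was lost with counts rebuilt from TPM (adjusted p = 0.143).

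**Figure D5:**
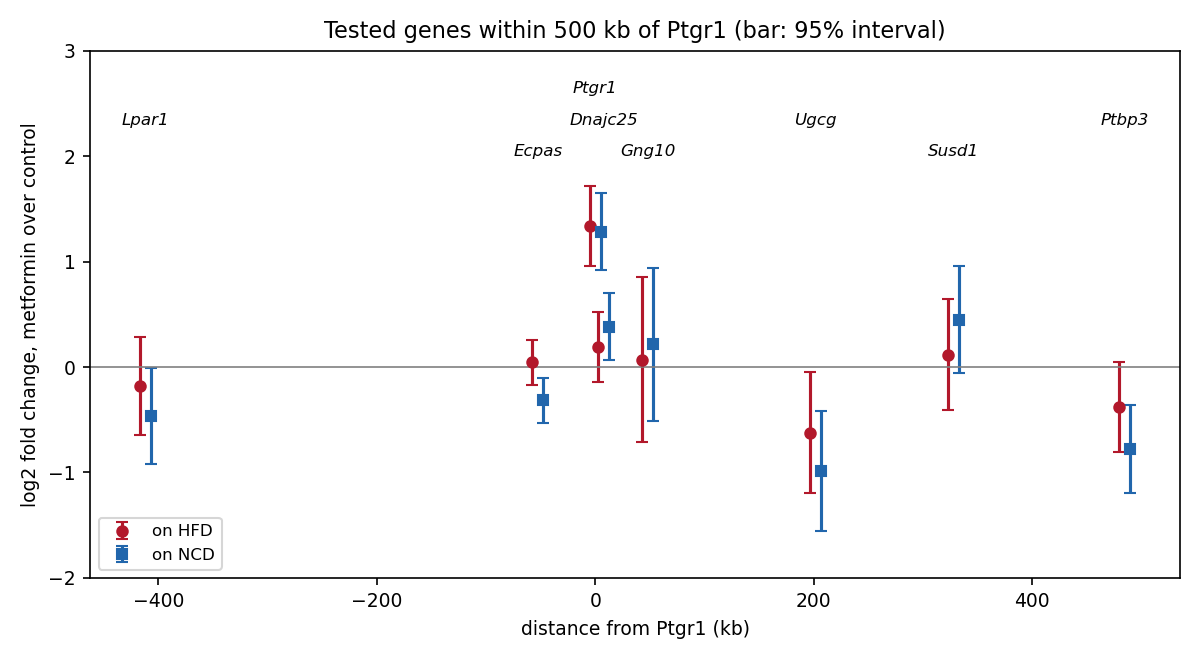
Log2 fold change of metformin over control with 95% intervals for Ptgr1 and the 7 tested genes within 500 kb, against distance from Ptgr1 in kb, circles on HFD and squares on NCD (moved slightly apart). Ptgr1 stands at 1.34 and 1.28, and the neighbours lie between -0.98 and 0.45.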

How the data were processed

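The 10 genes and all gene lists were chosen with earlier results of these data known. The files hold, per the file headers, NumReads (an estimated count) and TPM of 58204 transcripts in each of 16 libraries, as the authors deposited them. Salmon 1.3.0, DESeq2 1.28.1 and GRCm38.p6 are named, with no role, in the submitters' processing notes. Strand and bias options: not given in the sources used here. Listed lengths were within 3 bases of the coding length for 56929 of 56929 transcripts of the same version, so untranslated regions and noncoding genes were not measured. Genes of near-identical sequence can share reads, and overlapping antisense genes cannot be told apart.

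Counts were summed by gene (GENCODE M21) and rounded. The 752 transcripts without a match there, with 0.165 to 0.218% of a library's counts, were left out. Testing used edgeR 4.0.16 (R 4.3.3, limma 3.58.1) and its two-sided quasi-likelihood test in a single fit of 4 group means over all libraries, after filterByExpr and TMM scaling, with 12 residual degrees of freedom. P-values were adjusted by Benjamini-Hochberg over 12506 genes and called under 0.05. The 7 contrasts were both effects within each level of the other factor, both averages and the interaction. CPM are after TMM scaling. Library directions set each library against the other group's mean, or in averaged contrasts against the pooled mean of both other groups. Ratios of untested genes have exact counting intervals (95%), which like floors of 3 counts cover counting error only, since reads carry no molecular identifiers. The script was tested on simulated data.

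Alternatives were DESeq2 1.42.0, other scalings and filters, counts rebuilt from the deposited TPM, a term for the gap in title numbers, the compared groups alone and each library left out. Replicates were numbered in accession order. The text names the 10 genes, called genes of the lists and otherwise up to 4 a list by mean TPM, the 8 genes most and 4 least correlated with Ptgr1 at a mean of at least 1 CPM, the leading genes by deviations, and tested genes within 500 kb. Promoters are RefSeq's. Stability of the list and neighbour calls was examined after their values were seen.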

Additional observations from a re-analysis of the deposited data

Results flagged for a closer look

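Of 32 sets of 4 libraries (8 tested genes in 4 groups), 2 held a library far from the others, and chance gives about 1 in 20. Ptges had 0.179 CPM in HFD metformin 3, against 0.55 to 0.62 CPM in the other HFD metformin libraries, and this rests on 4 counts. Pla2g4a had 2.508 CPM in HFD metformin 4, against 1.38 to 1.52 CPM in the other HFD metformin libraries.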

How the results depend on the processing

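Most values kept their direction and their side of the threshold: 1919 results and settings did, 186 lost a call (all of genes outside the 10), 11 gained one, 28 reversed and 12 moved. With all libraries and the settings used throughout, the values that reversed elsewhere were smaller than their SE and had not passed the test. Fold changes here are log2. For metformin on NCD, counts rebuilt from TPM gave -0.42 for Ptgr2. Pla2g4a there was -0.0074 with library size only and -0.049 with a term for the gap in title numbers. For HFD without metformin, library size only gave -0.035 for Ptgr2, -0.074 for Ptges3 and -0.047 for Hpgd, rebuilt counts gave -0.13 for Ptgr2, and the gap term gave -0.26 for Hpgd. With single libraries left out, metformin on NCD ranged from -0.060 to 0.19 for Ptgr2, -0.38 to 0.22 for Ptges and -0.10 to 0.18 for Pla2g4a. Metformin on HFD ranged from -0.046 to 0.34 for Pla2g4a, and averaged from -0.096 to 0.042 for Ptgr2. HFD without metformin ranged from -0.28 to 0.29 for Hpgd, and HFD with metformin from -0.25 to 0.052 for Ptgr2 and -0.34 to 0.16 for Hpgd.

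Of the 7 other genes, the number called for metformin averaged over diets, 0, was 1 in DESeq2 (Hpgd), with library size only (Ptges3), at 1 CPM in 4 libraries (Ptges3), with rebuilt counts (Ptgr2) and with the gap term (Hpgd), and 0 to 1 with single libraries left out. For HFD averaged over treatments the number called, 0, was 1 in DESeq2, 2 with library size only (Ptgr1 at -0.47, and Ptges2), and 0 to 1 with single libraries left out. The causes were not tested. Over all genes, leaving out single libraries gave 180 to 1461 calls for metformin on NCD (1255 with all), 3 to 44 on HFD (21), 711 to 1505 averaged (1424), 3 to 384 for HFD with metformin (295), 2 to 13 without it (8), 28 to 180 averaged (117) and 0 to 1 for the interaction (0). The other settings gave 619 to 1790, 1 to 170, 880 to 1939, 2 to 769, 5 to 65, 35 to 1595 and 0 to 22 calls for the same contrasts. No paired analysis was possible because replicate numbers were given in accession order. Ptgds, Ptgs2, Ptges and Hpgd are limited by their low counts.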
